A study of Mus musculus with 2 samples.

Results

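The mitosis and spindle genes described here are 46 named genes, all of them listed in the deposited tables of both libraries among 22686 genes listed in either. They were read in spleen T cells of mice aged 8 to 9 weeks, sorted as CD3+CD5+ and captured with BD Rhapsody whole transcriptome single-cell RNA sequencing. The CD45-KO library came from LatY136F mice that also lack CD45, a receptor tyrosine phosphatase whose gene is Ptprc, and the LatY136F library came from mice with the LAT mutation alone. Both genotypes thus carry LatY136F, a point mutation in the T cell adaptor LAT that is known to cause a lymphoproliferative disorder of helper T cells, and no library of wild type mice was analysed here. How many mice were pooled into a library is not stated. Each genotype is 1 library, so the differences between them carry no test, and intervals reflect counting error alone.

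Mitosis is driven by CDK1 bound to A and B cyclins, and it is paced by the Aurora and Polo-like kinases, which control the spindle and the attachment of chromosomes. The spindle checkpoint holds the anaphase-promoting complex in check until every kinetochore is attached, and that complex with its activator CDC20 then marks cyclins and other proteins for destruction. Transcripts of these genes build up in late S phase and G2 and are low in resting lymphocytes, so their summed level in a T cell population depends on how many cells are dividing. In such sums, fewer dividing cells and less RNA per dividing cell cannot be told apart without a look at single cells.

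The 2 libraries held 12845 CD45-KO and 13775 LatY136F cells, with 29268453 unique molecular identifiers (UMIs, counts of captured transcripts) in the CD45-KO and 35300371 in the LatY136F library. Medians were 1991 UMIs per CD45-KO cell and 2153 per LatY136F cell. T-like cells, those of all clusters not named for another lineage, numbered 12718 in the CD45-KO and 13714 in the LatY136F library, and all 8 T cell markers had UMIs inside and outside the cycling class in both. Ptprc itself was at 1183 CPM (UMI counts scaled to the same total in each library and set of cells) in CD45-KO and 1760 CPM in LatY136F cells, a log2 ratio of -0.57. The deleted part of the gene is not stated, and transcripts from outside it would still be counted, so the label is not checked by this level. The libraries share 223 cell numbers, which are combinations of barcodes, and 0 of them were cycling in both.

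Many promoters of mitotic genes carry a cell cycle genes homology region (CHR), which is known to be bound by the DREAM and MuvB complexes, and a CCAAT box, bound by NF-Y. Promoter sequences from RefSeq (GRCm38.p6, 250 bases before to 50 after the start) were given for 39 of the 46 genes. Only the first listed start of each gene was searched. A CHR, searched as TTTGAA or TTCGAA on both strands, was in 32 of the 39 (82.1%), against 19.4% of all 27025 genes with a promoter in the table. CCAAT, also on both strands, was in 31 of 39 (79.5%), against 37.9% of all genes, and both motifs were in 71.8%, against 7.70%. Birc5, Ccnb1, Cenpe, Cks2, Nuf2, Nusap1 and Tacc3 had no CHR match in this window. A match is letters only and shows no binding. The 100 bases just before the start are given for 6 genes with a CHR match there and for 2 without any match to either motif. Capitals mark the matches, TTTGAA, or TTCAAA on the other strand, for the CHR, and CCAAT or ATTGG for the CCAAT box. The stretches lie at chr10:69352913-69353012 on the minus strand (Cdk1), chr2:164769829-164769928 on the plus strand (Ube2c), chr4:118437344-118437443 on the minus strand (Cdc20), chr11:99024190-99024289 on the minus strand (Top2a), chr19:37376282-37376381 on the plus strand (Kif11), chr8:57511743-57511842 on the plus strand (Hmgb2), chr1:169531465-169531564 on the minus strand (Nuf2) and chr2:119618198-119618297 on the plus strand (Nusap1).
Cdk1: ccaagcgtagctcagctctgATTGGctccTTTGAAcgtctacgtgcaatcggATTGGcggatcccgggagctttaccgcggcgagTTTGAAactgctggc
Ube2c: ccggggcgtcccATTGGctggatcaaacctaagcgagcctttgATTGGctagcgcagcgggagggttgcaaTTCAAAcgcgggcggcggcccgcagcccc
Cdc20: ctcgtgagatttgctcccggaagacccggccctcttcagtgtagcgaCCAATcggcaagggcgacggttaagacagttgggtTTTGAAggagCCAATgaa
Top2a: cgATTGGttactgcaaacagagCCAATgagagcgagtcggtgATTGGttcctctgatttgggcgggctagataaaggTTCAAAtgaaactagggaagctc
Kif11: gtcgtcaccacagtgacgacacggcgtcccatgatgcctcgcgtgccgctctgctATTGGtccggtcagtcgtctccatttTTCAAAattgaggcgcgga
Hmgb2: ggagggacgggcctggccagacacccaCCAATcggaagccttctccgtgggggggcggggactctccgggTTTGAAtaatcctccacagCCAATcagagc
Nuf2: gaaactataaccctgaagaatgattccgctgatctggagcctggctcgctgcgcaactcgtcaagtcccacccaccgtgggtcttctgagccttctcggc
Nusap1: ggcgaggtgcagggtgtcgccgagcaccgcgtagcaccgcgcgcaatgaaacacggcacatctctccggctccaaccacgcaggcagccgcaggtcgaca

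Summed over all T-like cells, the 46 genes gave 65810 UMIs in the CD45-KO library and 145053 in the LatY136F library, or 0.231% of all CD45-KO and 0.413% of all LatY136F UMIs. Each of the 46 was lower in CD45-KO cells, with exact 95% intervals (counting error only) that all lay below 0. A gene was counted as changed when it differed by at least 1.5-fold and had at least 20 UMIs over both libraries. By that rule 43 of the 46 were lower and 0 higher, where 9.25% of 12696 measured genes were lower and 7.84% higher. The median log2 ratio of CD45-KO over LatY136F was -1.14 over the 46 genes and 0.02 over all measured genes. Of the 12696 measured genes, 5970 lay below 0, and the intervals of 3285 lay wholly below 0.

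**Figure D1:**
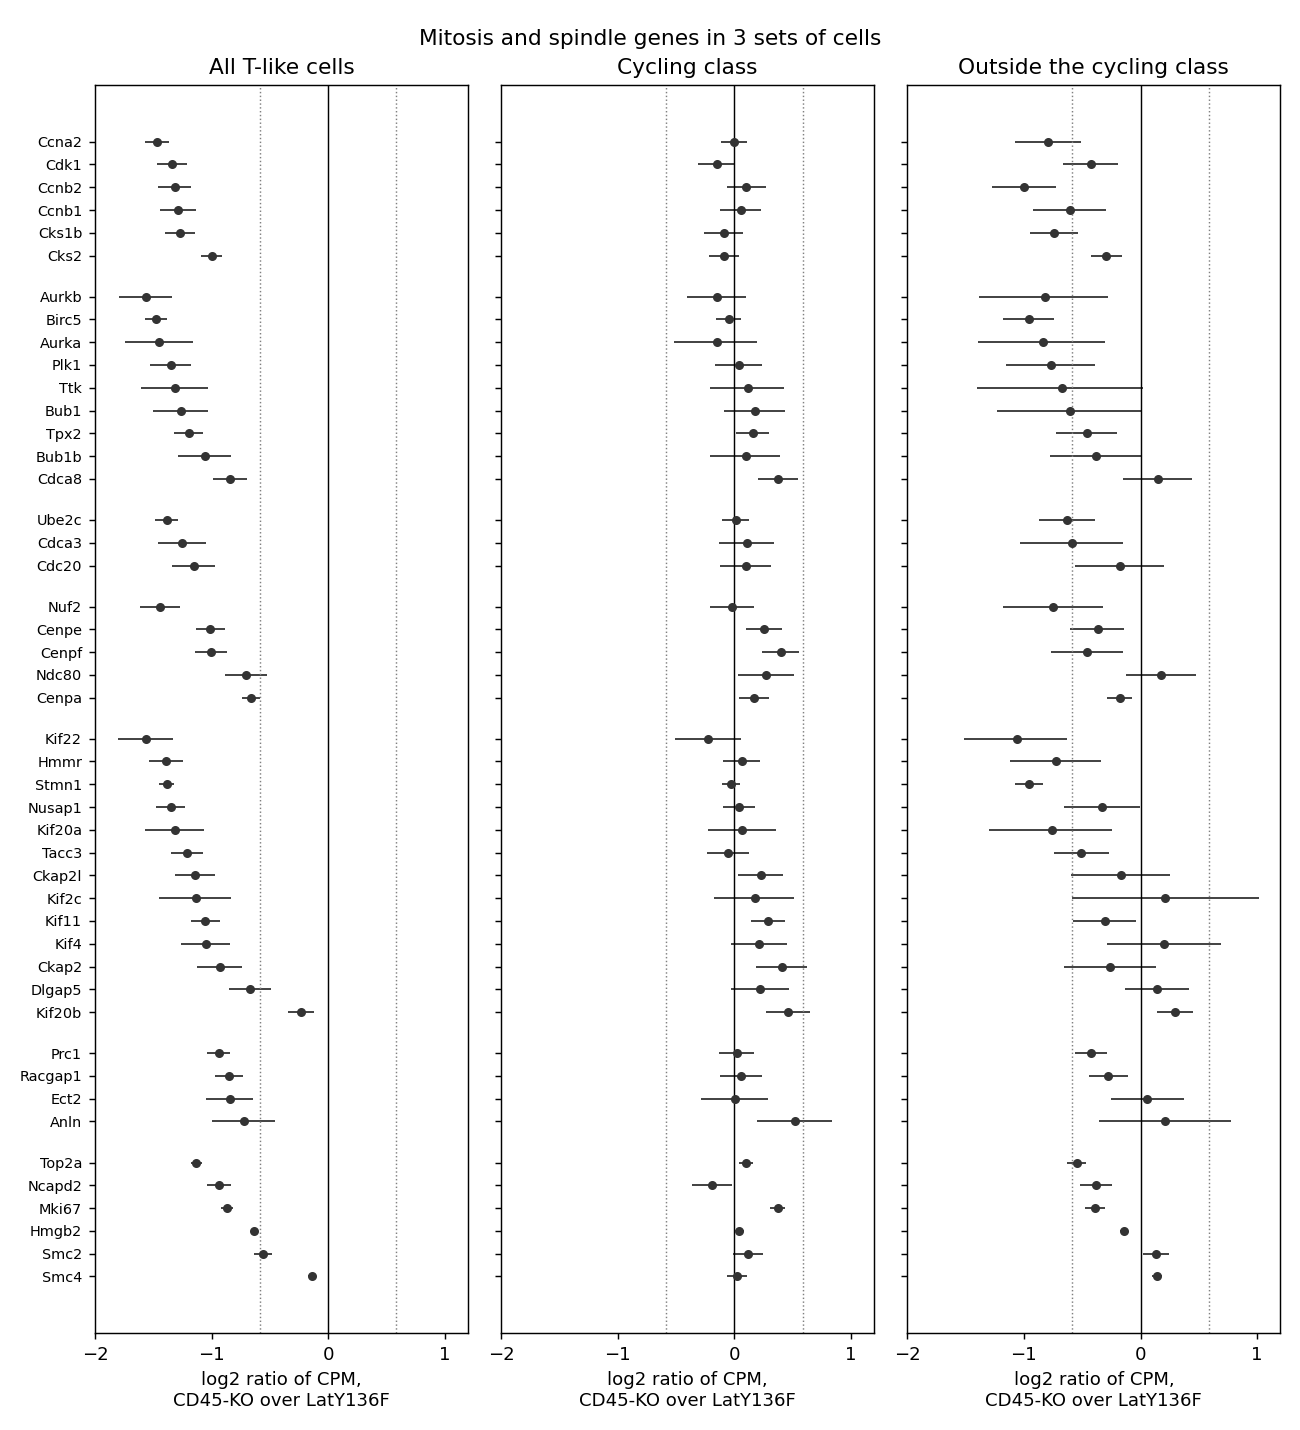
Log2 ratio of CPM (x axis), CD45-KO over LatY136F, for each of the 46 genes (rows, grouped by role) over all T-like cells, in the cycling class and outside it. Bars are exact 95% intervals for counting error, and dotted lines mark 1.5-fold. All 46 points lie below 0 on the left, the points in the cycling class lie between -0.22 and 0.52, and those outside it between -1.06 and 0.30.

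Among cyclins and CDK1 partners, all 6 were lower by at least 1.5-fold over T-like cells. Ccna2, the A-type cyclin of S and G2 phase, had 1024 UMIs in CD45-KO and 3480 in LatY136F cells, a ratio of -1.46 (-1.57 to -1.36). Cdk1, the kinase that drives entry into mitosis, had 659 UMIs in CD45-KO and 2048 in LatY136F cells (-1.34), and the B-type cyclins Ccnb1 and Ccnb2 had ratios of -1.29 and -1.32. The difference was smallest for Cks2, a small CDK-binding protein, with 1466 UMIs in CD45-KO and 3610 in LatY136F cells and a ratio of -1.0. Its paralog Cks1b stood at -1.27.

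All 9 mitotic kinases and their activators were lower as well. Aurkb, the kinase of the chromosomal passenger complex that corrects faulty attachments, had 206 UMIs in CD45-KO and 749 in LatY136F cells (-1.56, interval -1.79 to -1.34). Its partner Birc5 (survivin) had 1119 UMIs in CD45-KO and 3835 in LatY136F cells (-1.48). The third passenger gene measured here, Cdca8 (borealin), had the smallest difference of the group, with 561 UMIs in CD45-KO and 1235 in LatY136F cells (-0.84, interval -0.98 to -0.69), and its interval did not overlap those of Aurkb and Birc5. Aurka, the spindle pole kinase, stood at -1.45 and its activator Tpx2 at -1.20, Plk1 at -1.35, and the checkpoint kinases Ttk, Bub1 and Bub1b at -1.31, -1.26 and -1.06. Ube2c, the ubiquitin-conjugating enzyme of the anaphase-promoting complex, had 1027 UMIs in CD45-KO and 3303 in LatY136F cells (-1.38), while its activator Cdc20 and its substrate Cdca3 stood at -1.15 and -1.25.

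At the centromere and kinetochore, 5 of 5 genes were lower by at least 1.5-fold, over a wide range. Nuf2 and Ndc80 encode subunits of the complex that holds microtubules at the kinetochore. Nuf2 had 361 UMIs in CD45-KO and 1207 in LatY136F cells (-1.44, interval -1.61 to -1.27), and Ndc80 had 383 UMIs in CD45-KO and 769 in LatY136F cells (-0.71, interval -0.89 to -0.53), so these partners differed beyond counting error. Cenpa, the histone H3 variant that marks centromeres, had 1986 UMIs in CD45-KO and 3862 in LatY136F cells (-0.66), and the large kinetochore proteins Cenpe and Cenpf stood at -1.01 and -1.0.

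Of 13 kinesins and spindle genes, 12 were lower by at least 1.5-fold. The lowest ratio of all 46 genes was that of Kif22, a kinesin that binds chromosome arms, with 194 UMIs in CD45-KO and 707 in LatY136F cells (-1.57, interval -1.80 to -1.33). Stmn1, which destabilises microtubules, had 2512 UMIs in CD45-KO and 8066 in LatY136F cells (-1.38), and Hmmr, a microtubule-binding protein, had 510 in CD45-KO and 1648 in LatY136F cells (-1.39). The exception was Kif20b, a kinesin of late mitosis, with 1064 UMIs in CD45-KO and 1538 in LatY136F cells (-0.23, interval -0.35 to -0.12). Nusap1, Kif20a, Tacc3, Ckap2l, Kif2c, Kif11, Kif4, Ckap2 and Dlgap5 lay between -1.35 and -0.67. The 4 cytokinesis genes were all lower by at least 1.5-fold, from -0.94 for Prc1, which bundles the midzone of the spindle, to -0.72 for Anln, a protein of the contractile ring. Racgap1 and Ect2, which activate RhoA at the midzone, stood at -0.85 and -0.84.

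Chromosome structure genes held the smallest differences, with 4 of 6 past 1.5-fold. Top2a, the topoisomerase that untangles sister chromatids, had 4926 UMIs in CD45-KO and 13278 in LatY136F cells (-1.13), and Mki67, which coats mitotic chromosomes, had 4471 in CD45-KO and 10067 in LatY136F cells (-0.87). The condensin ATPases Smc2 and Smc4 stayed under 1.5-fold. Smc4 had 10906 UMIs in CD45-KO and 14801 in LatY136F cells (-0.14, interval -0.18 to -0.10), and Smc2 had 1942 in CD45-KO and 3524 in LatY136F cells (-0.56). Ncapd2, another condensin subunit, stood at -0.94, and Hmgb2, a DNA-bending chromatin protein, had 17922 UMIs in CD45-KO and 34201 in LatY136F cells (-0.63).

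The single cells were then split without use of the 46 genes. One cluster was named cycling from 101 other cycle genes, 44 of S phase and 57 of G2 and M, and it held 160 of 12718 T-like CD45-KO cells (1.26%, exact interval 1.07 to 1.47) and 641 of 13714 LatY136F cells (4.67%, 4.33 to 5.04). The CD45-KO share was 3.72-fold lower, or -1.89 on the log2 scale (-2.15 to -1.64). Cycling cells were rich in RNA, with medians of 6751 UMIs in CD45-KO and 6320 in LatY136F cells, against 1975 in CD45-KO and 2106 in LatY136F cells outside the class. Whether pairs of cells captured together contribute to these high counts was not tested. Cycling cells thus held 4.46% of the UMIs of T-like cells in the CD45-KO library and 13.3% in the LatY136F library. Of the UMIs of the 46 genes they held 42.9% in the CD45-KO and 67.1% in the LatY136F library.

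How much of a gene's transcripts lay in the cycling class differed between the genes, and this share was lower in the CD45-KO library, which had fewer cycling cells, for each of the 46. The medians over the genes were 67.4% in CD45-KO and 82.5% in LatY136F cells. That direction is largely set by the class itself, which held 4.46% of all UMIs of T-like cells in CD45-KO and 13.3% in LatY136F. The matching count over all measured genes is not given here. Ccna2 had 84.2% of its UMIs in cycling cells in the CD45-KO library and 91.0% in the LatY136F library, Hmmr had 83.3% in CD45-KO and 90.5% in LatY136F cells, and Nusap1 had 80.5% in CD45-KO and 91.3% in LatY136F cells, the 3 highest by the mean of both libraries. At the other end stood Smc4 with 13.3% in CD45-KO and 35.3% in LatY136F cells, Hmgb2 with 29.0% in CD45-KO and 54.1% in LatY136F cells, and Kif20b with 30.5% in CD45-KO and 56.2% in LatY136F cells. These last 3, with most of their CD45-KO transcripts outside the cycling class, are among the 5 genes with the smallest differences over all T-like cells. The level inside the class over that outside it, a ratio of CPM, was larger in the CD45-KO library for 42 of 46 genes. Median folds were 44.3 in CD45-KO and 30.9 in LatY136F cells. The matching share of all measured genes is not given here. This fold also depends on cycling cells left outside the class, and their part was not tested. The 32 genes with a CHR match had a median share of 66.4% in CD45-KO and 80.7% in LatY136F cells, and the 7 without had 71.0% in CD45-KO and 83.6% in LatY136F cells.

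**Figure D2:**
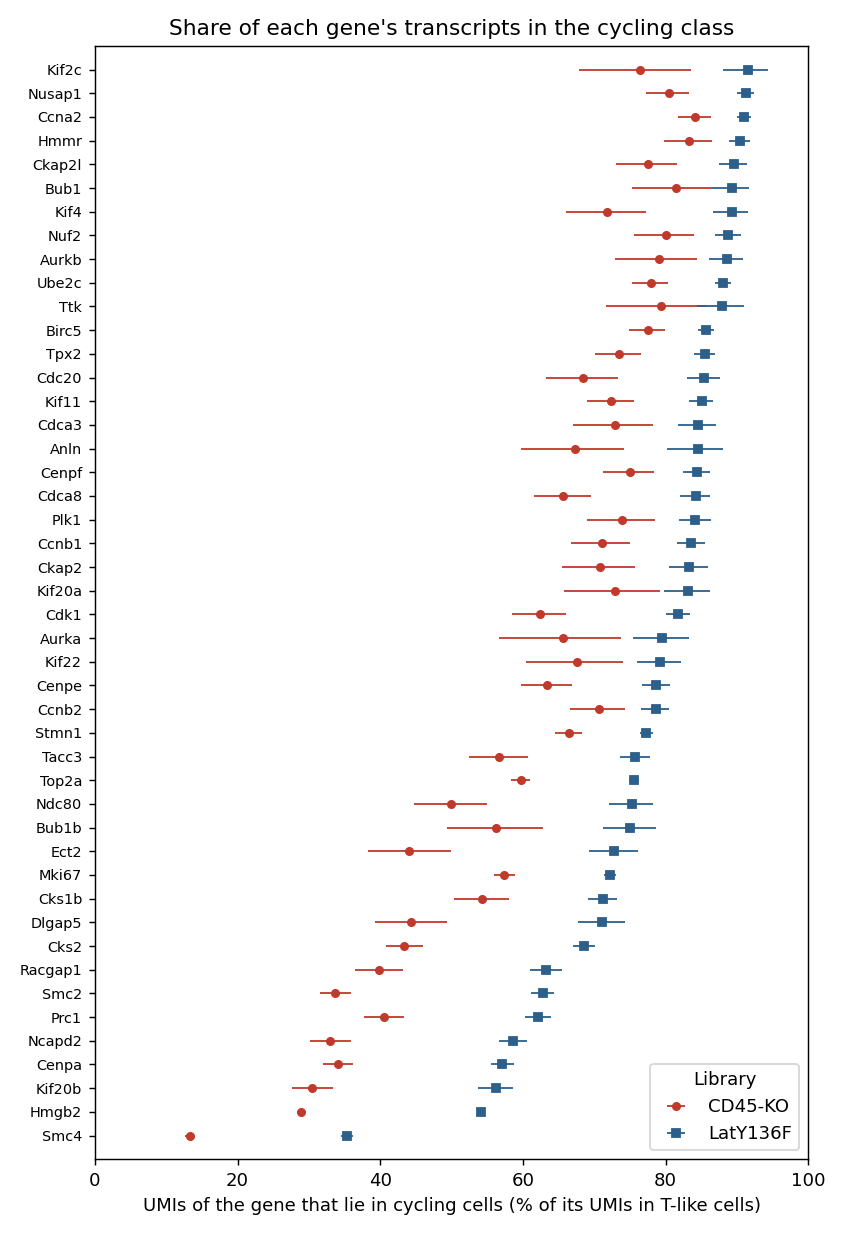
Share of each gene's UMIs over T-like cells that lies in the cycling class (x axis, %), per library, with exact 95% intervals for counting error. Genes run from Smc4 (13.3% in CD45-KO, 35.3% in LatY136F) at the bottom to the genes most restricted to cycling cells at the top, and each red point lies left of its blue square.

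Inside the cycling class the libraries were close. Its cells carried 176 UMIs of the 46 genes per CD45-KO cell and 152 per LatY136F cell, or 2.22% of the UMIs of CD45-KO and 2.09% of those of LatY136F cycling cells. Of the 46 genes, 0 were lower and 0 higher by at least 1.5-fold, where 7.75% of 9584 measured genes were lower and 7.7% higher. The median ratio was 0.08, against 0.02 over all 9584 measured genes, of which 5001 lay above 0. The 46 genes ranged from -0.22 for Kif22 to 0.52 for Anln, and 34 of them lay above 0. The direction depends on how cells are called cycling: with at least 5 of the other cycle genes the median was -0.064, and with at least 3 it was -0.55 with 21 genes lower. The share of all measured genes lower under these calls is not given here.

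The intervals of 13 genes lay wholly above 0 inside the cycling class, and 1 wholly below. Mki67 was at 2019 CPM in CD45-KO and 1561 CPM in LatY136F cycling cells (0.37, interval 0.31 to 0.44). Kinetochore genes stood together on this side, with ratios of 0.40 for Cenpf, 0.27 for Ndc80, 0.25 for Cenpe and 0.17 for Cenpa, while Nuf2 was at -0.02. Kif20b (0.46), Ckap2 (0.41), Cdca8 (0.38) and Kif11 (0.29) were also higher, and Ncapd2, at -0.19 (-0.36 to -0.02), was the gene lower beyond counting error. Cyclins and CDK1 showed no such shift: Ccna2 was at 678 CPM in CD45-KO and 680 CPM in LatY136F cycling cells (interval of the ratio -0.11 to 0.11), and Cdk1 was at 323 CPM in CD45-KO and 360 CPM in LatY136F cycling cells (-0.31 to 0.00).

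When the share of UMIs from cycling cells was set to the mean of both libraries, 8.86%, and each library kept its own levels inside and outside the class, the ratios over T-like cells centred on 0. Their median was then -0.02, 26 genes lay below and 20 above 0, the range was -0.42 for Kif22 to 0.46 for Anln, and 0 genes were lower by 1.5-fold. This calculation was chosen after seeing the data.

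Cycling cells were next split by phase, by whether their UMIs of the 57 G2 and M genes outnumbered those of the 44 S-phase genes. G2/M-biased cells made up 65 of 160 CD45-KO (40.6%, 32.9 to 48.7) and 237 of 641 LatY136F cycling cells (37.0%, 33.2 to 40.8), so the shares overlapped. The split is a cut in a range, and 36 CD45-KO and 154 LatY136F cells had a G2 and M share of 40 to 60% of these UMIs. All 46 genes were higher in G2/M-biased than in S-biased cells in both libraries, 44 of them by at least 1.5-fold in both. Median log2 ratios were 1.22 in CD45-KO and 1.31 in LatY136F cells. The split itself uses other G2 and M genes, so this direction was largely set by it. The share of all measured genes past 1.5-fold between these parts is not given here.

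The size of this phase difference varied between the genes. Ube2c, whose transcript is known to peak late, was at 1258 CPM in G2/M-biased and 252 CPM in S-biased CD45-KO cells (2.32), and at 1274 CPM in G2/M-biased and 284 CPM in S-biased LatY136F cells (2.16). Cenpf had ratios of 2.25 in CD45-KO and 2.24 in LatY136F cells, and Ccnb1 had 1.83 in CD45-KO and 1.95 in LatY136F cells. The largest CD45-KO ratio was that of Ckap2, 2.55 (2.09 to 3.03), against 1.70 (1.47 to 1.94) in LatY136F cells, so these intervals did not overlap. Ccna2, which is known to appear earlier, stood at 1.42 in CD45-KO and 1.34 in LatY136F cells. The smallest phase difference was that of Stmn1, with 0.41 in CD45-KO and 0.35 in LatY136F cells, and Smc2 had 0.55 in CD45-KO and 0.66 in LatY136F cells.

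Between the genotypes, the median ratio was 0.04 in G2/M-biased and -0.01 in S-biased cells. Past 1.5-fold were Ckap2, a spindle protein, in G2/M-biased cells (375 CPM in CD45-KO and 250 CPM in LatY136F cells, 0.59, interval 0.32 to 0.84) and Anln in S-biased cells (75.6 CPM in CD45-KO and 43.2 CPM in LatY136F cells, 0.81, interval 0.34 to 1.26). The Anln value rests on 60 UMIs in the CD45-KO library.

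**Figure D3:**
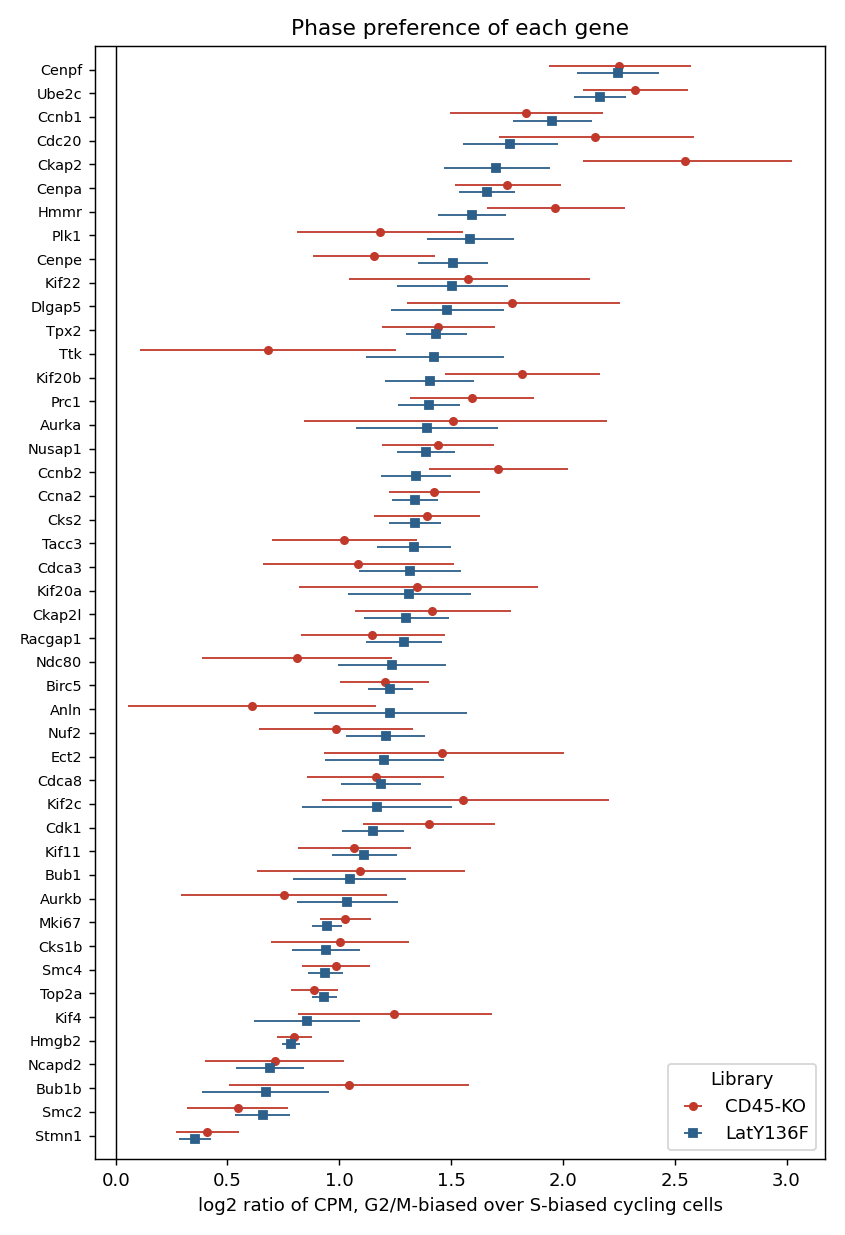
Log2 ratio of CPM (x axis) of G2/M-biased over S-biased cycling cells for each of the 46 genes, per library, with exact 95% intervals for counting error. All points lie above 0. Rows are ordered by the LatY136F ratio, from Stmn1 (0.41 in CD45-KO, 0.35 in LatY136F) at the bottom to Cenpf (2.25 in CD45-KO, 2.24 in LatY136F) at the top. The largest CD45-KO ratio is that of Ckap2 (2.55 in CD45-KO, 1.70 in LatY136F).

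Outside the cycling class the 46 genes were sparse, with 2.99 UMIs per CD45-KO cell and 3.65 per LatY136F cell. Hmgb2 and Smc4 made up 59.0% of them in CD45-KO and 52.9% in LatY136F cells. Of the 46 genes, 16 passed the 1.5-fold rule as lower and 0 as higher, where 7.56% of 12503 measured genes were lower and 7.52% higher, and the median ratio was -0.41. Cyclins and kinases held most of the lower genes, 4 of 6 and 6 of 9. Ccnb2 had 164 UMIs in CD45-KO and 366 in LatY136F cells (-1.0, interval -1.27 to -0.73), and Birc5 had 252 in CD45-KO and 548 in LatY136F cells (-0.96). Stmn1 had 844 in CD45-KO and 1832 in LatY136F cells (-0.96), and Kif22 had 63 in CD45-KO and 147 in LatY136F cells (-1.06). All 4 cytokinesis and all 6 chromosome structure genes stayed under 1.5-fold. Kif20b with 740 UMIs in CD45-KO and 674 in LatY136F cells (0.30, interval 0.14 to 0.45), Smc4 (0.14) and Smc2 (0.13) went the other way, beyond counting error. Anln (0.21), Kif2c (0.21), Kif4 (0.20), Ndc80 (0.18), Cdca8 (0.15), Dlgap5 (0.14) and Ect2 (0.06) also lay above 0, with intervals that included 0. With cells above 10% mitochondrial UMIs left out, the median was -0.11 with 4 genes lower and 3 higher. Other settings raised the count of lower genes, to 28 with cells weighted equally, 27 with cells thinned to 1000 UMIs and 30 with cycling cells called by at least 5 other cycle genes. Shares over all measured genes are not given for any of these settings. Median mitochondrial shares outside the class were 9.44% in CD45-KO and 8.65% in LatY136F cells, and their part in this result was not tested.

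The transcripts outside the class were not spread evenly over the other T-like clusters. Cluster 8, which is Tfh-like by 8 markers with Sostdc1, Cxcr5 and Il21 among its leading genes, and cluster 10, led by Ccl5, Gzmk and Nkg7, held 5.61% of these CD45-KO cells and 3.38% of these LatY136F cells. Over the 46 genes they held a median of 41.9% of the CD45-KO UMIs outside the class and 14.6% of the LatY136F UMIs. Ccna2 had 107 of its 162 CD45-KO UMIs outside the class there (66.0%), and 83 of 313 LatY136F UMIs (26.5%). Hmgb2, by contrast, had 11.6% in CD45-KO and 5.18% in LatY136F cells. Without these clusters, a step chosen after seeing the data, 31 genes passed the 1.5-fold rule as lower outside the cycling class and 0 as higher, the median was -0.80, and Ccna2 stood at -1.86 against -0.79 with them. The share of all measured genes past 1.5-fold without these clusters is not given here.

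Most other clusters showed lower summed levels in CD45-KO cells. Of 11 such clusters with 50 or more cells from each library, 6 had a summed ratio with an interval below 0, from -0.36 to -0.18, 3 had intervals that included 0, and 2 lay above 0. In cluster 10 the 46 genes stood at 3370 CPM in CD45-KO and 1766 CPM in LatY136F cells, a ratio of 0.93 (0.81 to 1.06), over 331 CD45-KO and 153 LatY136F cells. Cluster 10 also carried 3 of 7 NK cell markers, whose list summed to 1795 CPM in CD45-KO and 2469 CPM in LatY136F cells there. All 8 T cell markers had UMIs in cluster 10, and their part in its level was not tested. Without cluster 10, the median over T-like cells was -1.18 with 43 genes lower, and the median outside the cycling class was -0.57 with 23 genes lower. Shares over all measured genes are not given for these counts. In cluster 8 the 46 genes stood at 3100 CPM in CD45-KO and 3219 CPM in LatY136F cells. Cells with at least 5 distinct other cycle genes, after each cell was thinned to 1000 UMIs, were 12 of 324 CD45-KO and 3 of 149 LatY136F cells in cluster 10, and 28 of 367 CD45-KO and 28 of 283 LatY136F cells in cluster 8. With every cell thinned to the same depth, the 46 genes stood at 1895 CPM in CD45-KO and 1497 CPM in LatY136F cells of cluster 10, a ratio of 0.34 (0.12 to 0.57) against 0.93 without thinning. In cluster 8 the thinned levels were 2169 CPM in CD45-KO and 2597 CPM in LatY136F cells (-0.26, interval -0.41 to -0.11). Leaving out the cells with at least 5 other cycle genes moved these thinned ratios little, to 0.28 in cluster 10 and -0.25 in cluster 8.

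**Figure D4:**
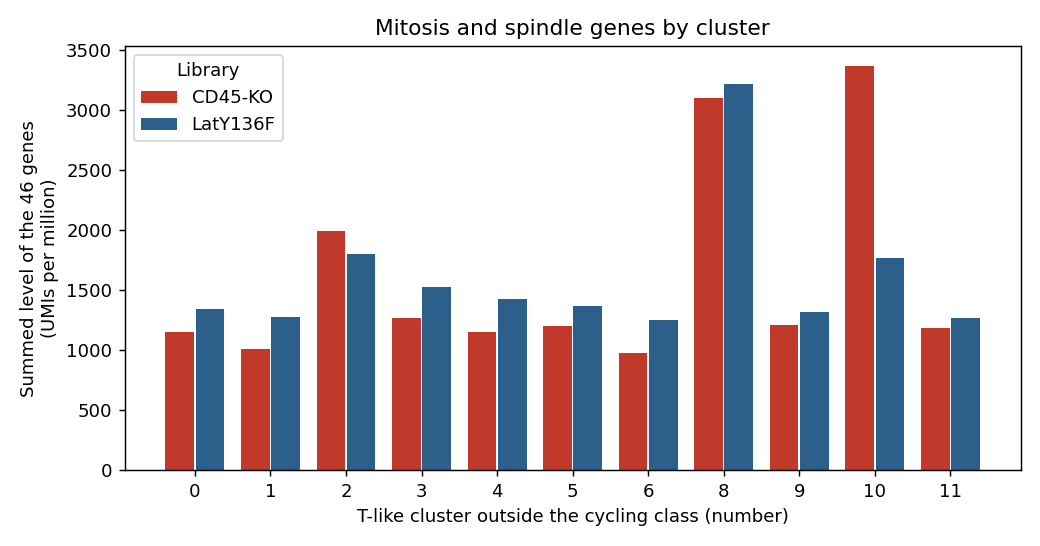
Summed level of the 46 genes (y axis, CPM) in each T-like cluster outside the cycling class that had 50 or more cells from each library, CD45-KO left of LatY136F. Clusters 8 and 10 stand above the rest in CD45-KO cells (3100 and 3370), and in clusters 2 and 10 the CD45-KO bar is the higher one beyond counting error.

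A split with no cluster border gave a graded view. All cells were thinned to 1000 UMIs, which left out 357 CD45-KO and 431 LatY136F cells, and were binned by how many of the 101 cycle genes named above had a UMI. With 0 such genes the 46 genes stood at 1137 CPM in CD45-KO and 1343 CPM in LatY136F cells. With 5 or more they stood at 15110 CPM in CD45-KO and 17736 CPM in LatY136F cells. The summed ratio was between -0.28 and -0.22 in each of the 5 bins, and 38 to 41 of the 46 genes were lower in CD45-KO cells in each. The share of all measured genes lower in these bins is not given here. Some of the 46 had few UMIs per bin, such as Hmmr with 1 in CD45-KO and 6 in LatY136F cells with 0 other cycle genes. The bin with 5 or more was made up unequally, with 153 of 283 CD45-KO and 616 of 823 LatY136F cells in the cycling class. In that bin 6.36% of CD45-KO and 3.28% of LatY136F cells had no UMI of the 46 genes. The part of this make-up in the ratio of the bin was not tested. Even with 0 other cycle genes, Stmn1 had 41 UMIs in CD45-KO and 134 in LatY136F cells, and Birc5 had 9 in CD45-KO and 54 in LatY136F cells, over 3894 CD45-KO and 3564 LatY136F cells. Free RNA from lysed cells can give such UMIs, and its part was not tested. Hmgb2 and Smc4 made up 65.7% of the CD45-KO and 57.0% of the LatY136F UMIs in that bin.

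**Figure D5:**
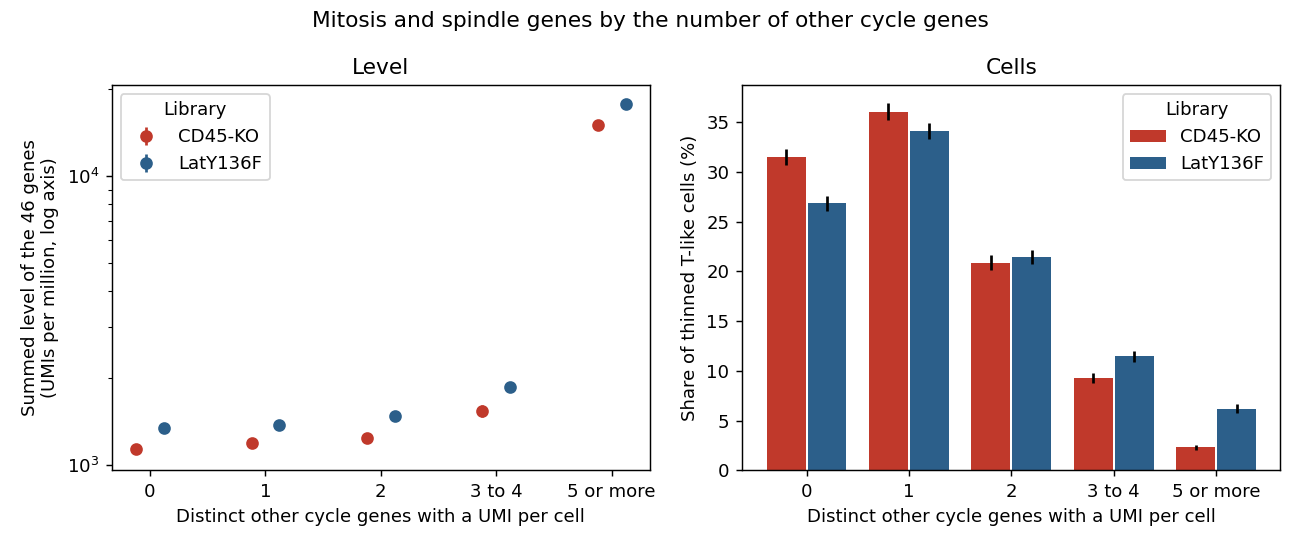
Left, summed level of the 46 genes (CPM, log axis) in T-like cells thinned to 1000 UMIs and binned by the number of other cycle genes with a UMI. Right, the share of cells in each bin (%), with exact 95% intervals. CD45-KO lies below LatY136F in level in each bin, and the share is 2.29% in CD45-KO and 6.20% in LatY136F in the bin with 5 or more.

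The bin with 5 or more other cycle genes was the one whose share of cells differed far more than its level. It held 283 CD45-KO cells (2.29%, 2.03 to 2.57) and 823 LatY136F cells (6.20%, 5.79 to 6.62). By the 46 genes themselves, 124 thinned CD45-KO cells (1.00%) and 424 LatY136F cells (3.19%) had UMIs of at least 10 of them. Such cells are high in these genes by the way they were chosen, so only their shares are compared. In the cycling class the median was 13 of the 46 genes per CD45-KO cell and 12 per LatY136F cell.

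Other parts of the cell cycle are given for comparison, as counts over T-like cells. Of 62 other mitosis genes, 53 were lower in CD45-KO cells by at least 1.5-fold and 0 higher, with a median of -1.08. Kif23, the kinesin partner of Racgap1, had 532 UMIs in CD45-KO and 2485 in LatY136F cells (-1.92), with a ratio of -2.40 outside and 0.07 inside the cycling class. Of 46 replication and S-phase genes, 26 were lower and 0 higher, with a median of -0.73. Rrm2, a subunit of ribonucleotide reductase, stood at -1.74 and Pclaf, a PCNA-binding protein, at -1.59, and both were also lower inside the cycling class (-0.44 and -0.17). Of 24 genes of the anaphase-promoting complex and cohesin, which resting cells also use, 0 were lower and 0 higher, with a median of -0.03. Fzr1, the complex's activator in G1, had the largest difference among them (-0.53). Of 33 regulators of the cycle, 12 were lower and 2 higher. The CDK inhibitor Cdkn1a (p21) stood at -0.95 over T-like cells but at 0.40 (0.04 to 0.76) inside the cycling class, and the antiproliferative gene Tob1 was higher, with 941 UMIs in CD45-KO and 645 in LatY136F cells (0.85). Cdk2 stood at -0.91 over T-like cells and was also lower inside the cycling class (-0.54, interval -0.81 to -0.28). Cdc25a stood at -0.64 over T-like cells and at -0.16 (-0.58 to 0.23) inside the class.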

How the data were processed

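The deposited files hold counts of molecules (UMIs) per cell and gene after the pipeline's error correction. The BD Rhapsody pipeline 1.9.1 with GRCm38 and GENCODE M19 was used, per the file headers. The headers were followed, although pipeline 2.0 and Seurat 4.04 stand in the design text and GRCm39 in the submitters' processing notes. No map from cells to sample tags was used. Cells were kept from 200 genes upward and up to 25% mitochondrial counts (12834 CD45-KO and 13747 LatY136F). No doublet caller was run and doublets were kept. Both libraries were clustered together (scanpy 1.11.5, leidenalg 0.10.2, 2000 variable genes, 30 components, 15 neighbours, resolution 0.8) without the 46 genes, Ptprc, and sex-linked, ribosomal, mitochondrial and antigen receptor genes. A cluster was named cycling or non-T when at least 3 markers of a list marked it and a gene of that list stood among its 10 leading genes. Cycling also required that no other list had more markers there. Tfh-like describes a cluster by its Tfh markers and was not a class of its own. Non-T rests on the B, plasma, myeloid and erythroid lists. NK markers, which T cells can share, were not used for it. Counts were summed per library and scaled to CPM. Ratios have exact conditional binomial and shares Clopper-Pearson 95% intervals, which cover counting error only. The ratio intervals over all T-like cells were checked on simulated counts. Those counts were independent Poisson draws, as the intervals assume, so the check cannot speak to UMIs concentrated in few cells. Intervals of shares and of ratios in smaller sets of cells were not simulated. The members and lists were chosen with earlier results of these data known. All 46 genes are accounted for. Named with their values are the extremes of each role group and the genes above 0 outside the cycling class. So are the 3 highest and lowest by mean share of UMIs in cycling cells. From other lists, up to 4 genes of at least 20 CPM were eligible, by the size of their ratio.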

Additional observations from a re-analysis of the deposited data

Results flagged for a closer look

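The summed level of the 46 genes went in opposite directions between T-like clusters. In cluster 10, led by Ccl5, Gzmk and Nkg7, the log2 ratio of CD45-KO over LatY136F was 0.93, or 0.34 (0.12 to 0.57) with each cell thinned to 1000 UMIs. In cluster 2, led by Myadm and Anxa2, it was 0.14 (0.09 to 0.20), with 1997 CPM in CD45-KO and 1807 CPM in LatY136F cells, or 0.076 (-0.01 to 0.16) thinned. In 6 other clusters the interval lay below 0. The difference between clusters was not tested, since each genotype is 1 library.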

How the results depend on the processing

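The results were recomputed under 16 other settings, of which 4 (cycling UMI share held equal, clusters 8 and 10 left out, cluster 10 left out, shared cell numbers left out) were chosen after seeing the data. Shares of all measured genes past 1.5-fold are given for the main setting only, so counts under other settings stand without that background. With 1 library per genotype no library could be left out. No paired analysis was possible because each genotype is 1 library. The other scaling, at least 500 genes, no UMI filter, Leiden resolutions 0.4 and 1.2, non-T cells included, cluster 10 left out and shared cell numbers left out left every count of genes past 1.5-fold within 1.5 times of the reported one. At most 10% mitochondrial UMIs left 7816 CD45-KO and 10567 LatY136F cells, with a median over T-like cells of -0.83, shares of cycling cells of 1.88% (CD45-KO) and 5.95% (LatY136F), and outside the class a median of -0.11 with 4 genes lower (Kif22, Aurkb, Aurka, Stmn1) and 3 higher (Anln, Kif2c, Kif4). Weighting cells equally gave 28 genes lower outside. Thinning gave -0.73 and 27 genes lower outside, and inside 1 lower (Kif20a, -0.70) and 1 higher (Cenpf, 0.68). With the 46 genes in the clustering, the shares were 1.59% (CD45-KO) and 5.61% (LatY136F), and 1 gene (Anln, 0.59) was higher inside. Calling cells cycling by at least 5 other cycle genes gave 2.29% of CD45-KO and 6.20% of LatY136F cells (ratio -1.44) and -0.78 with 30 genes lower outside. At least 3 gave 11.6% of CD45-KO and 17.6% of LatY136F cells (-0.61), a median of -0.55 with 21 genes lower inside, and 29 lower outside. Without clusters 8 and 10 the outside median was -0.80 with 31 genes lower. With the cycling UMI share held equal the T-like median was -0.023 with 0 genes lower, and 20 genes changed sign: Kif20b (0.37), Smc2 (0.13) and Smc4 (0.11), which were under 1.5-fold, and 17 that were past it, Anln (0.46), Cdca8 (0.33), Ckap2 (0.27), Cenpf (0.25), Ndc80 (0.24), Kif4 (0.21), Dlgap5 (0.19), Kif11 (0.18), Kif2c (0.18), Ckap2l (0.17), Mki67 (0.13), Cenpe (0.094), Bub1 (0.078), Tpx2 (0.048), Cdc20 (0.045), Ect2 (0.027) and Ttk (0.0017). That setting removes the difference in cycling share by construction. For the others the cause was not tested. The count of cycling CD45-KO cells, 160, limits the ratios inside the class.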
